A study of Mus musculus with 4 samples.

Results

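The genes described here are 10 genes of NAD biology: *Nampt* and *Nmnat1*, which make NAD in the salvage route, *Parp1*, which consumes it, and *Sirt1*, *Sirt2*, *Sirt3*, *Sirt4*, *Sirt5*, *Sirt6* and *Sirt7*, which encode the sirtuin deacylases. They were looked up by symbol, from a list set with earlier results of these data known. All 10 were found among the 19645 features of the expression files, of which 17710 carry a gene symbol. RNA sequencing was performed on undifferentiated mouse embryonic stem cells (ESCs), with 2 libraries of wild-type (WT) and 2 of *Bmal1* KO ESCs. The mutant is 1 line made with CRISPR-Cas9 and 1 guide RNA, carrying a frameshift deletion in *Arntl*, the gene that encodes BMAL1. BMAL1 is the partner of CLOCK in the activating arm of the circadian clock, and ESCs of both genotypes were grown on gelatin in serum with LIF, so the comparison asks how loss of this factor bears on the RNA of NAD genes in cells whose clock does not oscillate. The paper calls the libraries biological duplicates, but the labels name no separate cultures or clones behind them. Each p-value therefore measures only the spread between these libraries, with 1 KO line.

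NAD is the electron carrier of central metabolism and also the substrate of enzymes that cleave it to nicotinamide. NAMPT turns that nicotinamide into nicotinamide mononucleotide, the rate-limiting step of salvage, and the NMNAT enzymes complete the dinucleotide. Sirtuins and poly(ADP-ribose) polymerases spend NAD on deacylation and ADP-ribosylation, and in differentiated tissues *Nampt* is a textbook target of CLOCK and BMAL1 through E-box elements, which links the clock to SIRT1 activity.

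The values are FPKM, fragment counts divided by transcript length and by the mapped fragments of the library, so levels can be compared between genes, but the number of reads behind each value is unknown. *Arntl* itself was read at 6.05 and 6.29 FPKM in WT and 5.95 and 5.92 in KO, a log2 fold change of -0.06 (standard error 0.10, limma adjusted p = 0.750), and a frameshift need not lower RNA. All 8 ESC marker genes looked at passed the filter on low values, with summed levels of 3395 to 3494 FPKM in WT and 3053 to 3250 in KO, of which *Pou5f1* is the largest part. Of the 8, *Klf4* (log2 fold change -0.46, adjusted p = 0.0177) and *Tdgf1* (-0.36, adjusted p = 0.0322) were lower and *Tfcp2l1* (0.39, adjusted p = 0.0259) was higher in KO. The 5 listed of 7 fibroblast markers summed to 1.67 to 2.93 FPKM, the 5 listed of 6 endoderm markers to 0.769 to 0.853 and the 6 mesoderm markers to 1.61 to 2.84. The 6 neural markers summed to 128 and 135 FPKM in WT and 89.8 and 97.6 in KO, nearly all of it *Tubb3*, which was lower (log2 fold change -0.70, adjusted p = 0.00827), while *Sox1* (2.34, adjusted p = 0.00169), *Pax6* (1.72, adjusted p = 0.0198) and *Neurod1* (2.11, adjusted p = 0.00746) were higher and the median of the 6 was 1.28. The part of these marker differences in the results below was not tested. The Y-linked gene *Ddx3y* was at 0.235 and 0.403 FPKM in WT and 16.4 and 20.6 in KO, and *Eif2s3y* at 1.40 and 2.04 in WT and 44.6 and 53.1 in KO. The WT and KO libraries therefore differ in Y-linked RNA besides the deletion, and for every gene below the genotype cannot be told apart from that difference. Features without a symbol took 26.8 and 37.3% of the summed FPKM in WT and 18.96 and 18.1% in KO, which bears on any scaling to a total.

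Promoter letters are shown first because CLOCK and BMAL1 bind the E-box, CACGTG. RefSeq windows on GRCm38.p6, from 250 bases before to 50 bases after a start, were found for all 10 genes, 13 windows in all, and both strands were searched for CACGTG and for the variant CACGTT. The E-box was found in 2 of the 10 genes, *Parp1* and *Sirt1*, the variant in 0 of them, and 8 held neither. Among all RefSeq genes searched, 8.09% held an E-box and 5.44% the variant. *Parp1* has 1 E-box, whose first base lies 49 bases before the start (chr1:180568830-180568859, plus strand). *Sirt1* has 2, which begin 115 bases (chr10:63339133-63339162) and 43 bases (chr10:63339061-63339090) before the start on the minus strand. The 30-base stretches are written 5′ to 3′ on the gene's strand, with the E-box in capitals.
*Parp1*: acctcccaaggaCACGTGctgaagccccgc
*Sirt1*, farther box: gcggcgcccggcCACGTGacccggcgtgtt
*Sirt1*, nearer box: ggaggggcgggtCACGTGacggggtttaaa
A match describes the sequence only, and the windows of *Nampt* hold neither motif within these 300 bases.

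The features of all 10 genes were read above 3 FPKM in every library, *Sirt7* only together with *Mafg*, and none passed the test of KO against WT after adjustment. By limma on log2(FPKM + 0.1), 0 of the 10 had an adjusted p under 0.05, against 12.5% of the 12990 features tested (6.85% higher and 5.6% lower in KO), and 0 passed the call of adjusted p under 0.05 with more than 2-fold change, which 4.14% of all features passed. At an unadjusted p under 0.05, 3 of the 10 passed (*Sirt2*, *Sirt5* and *Sirt7*), beside 29.6% of all features. The 2 KO values exceeded the 2 WT values for 3 genes, *Parp1*, *Sirt2* and *Sirt7*, beside 27% of all features, and below them for 1 gene, *Sirt5*, beside 31.7%. The other 6 overlapped.

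**Figure D1:**
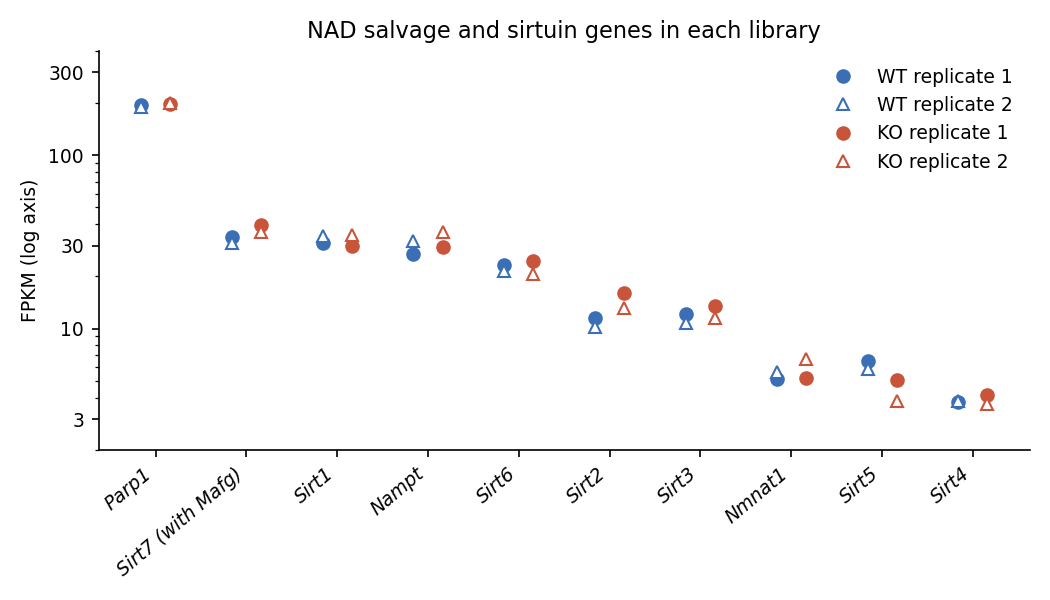
FPKM of the 10 NAD genes in each of the 4 libraries on a log axis, with 2 WT and 2 KO points per gene. *Parp1* stands above all others, at 191 to 201 FPKM, and *Sirt4* sits lowest, at 3.66 to 4.15.

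The levels ranged over more than an order of magnitude. *Parp1*, the main DNA damage-responsive ADP-ribose polymerase, was by far the most abundant, with a mean of 196 FPKM over the 4 libraries. The feature that holds *Sirt7* averaged 35.1 FPKM, *Sirt1* 32.5, *Nampt* 31.0 and *Sirt6* 22.5. Next came *Sirt2* at 12.7 and *Sirt3* at 11.9 FPKM, and then *Nmnat1* at 5.65, *Sirt5* at 5.30 and *Sirt4* at 3.85. The 4-library ranges of neighbours in this order were apart at 4 places: *Parp1* was 5.59-fold above the *Sirt7* feature, *Nampt* 1.38-fold above *Sirt6*, *Sirt6* 1.77-fold above *Sirt2*, and *Sirt3* 2.11-fold above *Nmnat1*. Every other pair of neighbours overlapped, so the order among the *Sirt7* feature, *Sirt1* and *Nampt*, between *Sirt2* and *Sirt3*, and among *Nmnat1*, *Sirt5* and *Sirt4* is not resolved beyond the spread of the libraries.

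The salvage enzymes did not pass the test of KO against WT. Coordinates given for each gene are those of its feature, which can be wider than the annotated gene. *Nampt* (ENSMUSG00000020572.8; chromosome 12, 32820335 to 32853369, GRCm38) was read at 27.0 and 31.9 FPKM in WT replicates 1 and 2 and at 29.4 and 35.9 in KO. The groups overlap, and replicate 2 was the higher library in both genotypes. The KO-to-WT difference was 0.15 on the log2 scale (standard error 0.13, 95% interval -0.18 to 0.47, limma adjusted p = 0.514). *Nmnat1*, whose product is the nuclear NMNAT enzyme (chromosome 4, 149467574 to 149496667), was at 5.14 and 5.61 FPKM in WT and 5.21 and 6.65 in KO. Its groups also overlap, with KO replicate 2 alone above the rest, and the log2 fold change was 0.13 (interval -0.24 to 0.50, adjusted p = 0.604). The ratio of *Nampt* to *Nmnat1* stayed between 5.25 and 5.69 in all 4 libraries.

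*Parp1* (chromosome 1, 180568975 to 180601254) was at 196 and 191 FPKM in WT and 197 and 201 in KO. Both KO libraries were above both WT libraries, by a margin smaller than the gap between the WT libraries. Its log2 fold change was 0.04 (standard error 0.07, interval -0.13 to 0.21, adjusted p = 0.730), the narrowest interval of the 10 genes. The FPKM of *Parp1* was 7.25 and 5.97 times that of *Nampt* in WT replicates 1 and 2 and 6.69 and 5.60 times in KO.

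Among the nuclear sirtuins, *Sirt1*, the NAD-dependent deacetylase that acts on histones, p53 and clock proteins (chromosome 10, 63319005 to 63339496), was at 31.0 and 34.3 FPKM in WT and 30.04 and 34.4 in KO. The groups overlap almost completely, and the log2 fold change was -0.02 (standard error 0.10, interval -0.27 to 0.23, adjusted p = 0.909). *Sirt6*, which acts on histone H3 at telomeres and glycolytic genes (chromosome 10, 81621786 to 81648162), was at 23.3 and 21.5 FPKM in WT and 24.6 and 20.7 in KO. The KO libraries lie outside the WT pair on either side, so the means nearly coincide: the log2 fold change was 0.01 (interval -0.26 to 0.29, adjusted p = 0.954). *Sirt7*, the nucleolar sirtuin, was listed only in a feature merged with *Mafg*, a small MAF transcription factor gene (chromosome 11, 120618372 to 120635266), so its own level cannot be separated. That feature was at 33.5 and 31.3 FPKM in WT and 39.3 and 36.1 in KO. Both KO libraries were higher, with a log2 fold change of 0.22 (standard error 0.09, interval 0.01 to 0.43), and the adjusted p was 0.159. A second feature at the same coordinates that is named *Mafg* alone was at 5.70 and 4.95 FPKM in WT and 6.99 and 6.03 in KO (log2 fold change 0.28, adjusted p = 0.215), so what share of the merged value belongs to *Sirt7* was not tested.

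*Sirt2*, the mainly cytoplasmic tubulin deacetylase (chromosome 7, 28766752 to 28788665), had the largest positive difference among the 10. It was at 11.5 and 10.2 FPKM in WT and 16.0 and 13.1 in KO. The KO libraries lie above the WT libraries, but the gap between the 2 KO libraries was wider than the gap between the groups. The log2 fold change was 0.41 (standard error 0.13, interval 0.09 to 0.73, limma adjusted p = 0.0981), a 1.33-fold difference that did not pass. The call changed when 1 library was left out: without WT replicate 1 the log2 fold change was 0.50 with adjusted p = 0.0340, and without KO replicate 2 it was 0.56 with adjusted p = 0.0368. In the other direction, it was 0.27 without KO replicate 1 (adjusted p = 0.316) and 0.33 without WT replicate 2 (adjusted p = 0.218). Over all settings tried the adjusted p of *Sirt2* ranged from 0.0114 to 0.316.

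None of the 3 mitochondrial sirtuins passed the test, and their signs were mixed. *Sirt3*, the main mitochondrial deacetylase (chromosome 7, 140853323 to 140882309), was at 12.2 and 10.7 FPKM in WT and 13.4 and 11.4 in KO, with overlapping groups and a log2 fold change of 0.11 (interval -0.18 to 0.41, adjusted p = 0.574). *Sirt4*, which acts on glutamine and lipid metabolism (chromosome 5, 115477826 to 115484484), was at 3.76 and 3.81 FPKM in WT and 4.15 and 3.66 in KO, with a log2 fold change of 0.04 (interval -0.27 to 0.35, adjusted p = 0.863). In both genes at least 1 KO library falls at or below the higher WT library, so neither group stands apart. *Sirt5*, the desuccinylase and demalonylase of mitochondria (chromosome 13, 43365476 to 43395203), was at 6.51 and 5.80 FPKM in WT and 5.06 and 3.84 in KO. Both KO libraries were below both WT libraries, yet the KO libraries were also farther from each other than the nearer pair of WT and KO. The log2 fold change was -0.47 (standard error 0.16, interval -0.87 to -0.07, limma adjusted p = 0.121), the largest difference in size among the 10 and not past the threshold. Without KO replicate 1 it was -0.67 with adjusted p = 0.0336, without KO replicate 2 it was -0.28 with adjusted p = 0.352, and over all settings tried the adjusted p ranged from 0.0268 to 0.352.

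**Figure D2:**
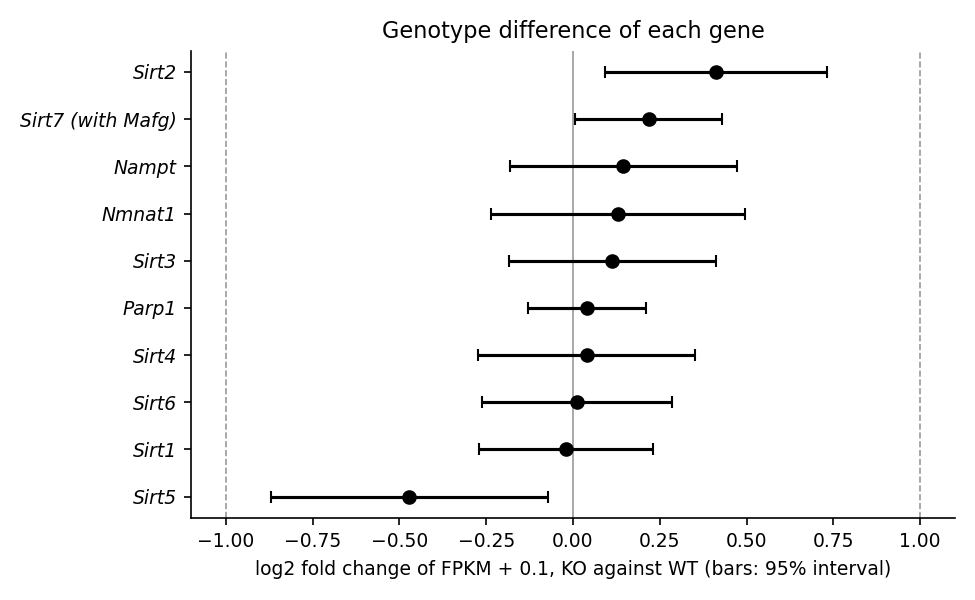
Log2 fold change of KO against WT for the 10 NAD genes, as points with 95% intervals from limma, beside the 2-fold limits. All 10 intervals lie within 2-fold, 7 of them include 0, and *Sirt2*, *Sirt5* and the *Sirt7* feature are the 3 that do not.

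The intervals bound what these libraries allow: all 10 lie inside a 2-fold change in either direction, and all 10 fitted changes are under 1.5-fold. Most tested features also changed little: 79.5% of them changed less than *Sirt5* and 75.8% less than *Sirt2*. The signs were 8 higher and 2 lower in KO, although *Sirt1* turned to 0.052 when scaled to the summed FPKM of features with a symbol and *Sirt4* to -5.14e-05 under quantile normalization. Leaving out 1 library turned the sign of 5 of the 10 (*Nmnat1*, *Sirt1*, *Sirt3*, *Sirt4* and *Sirt6*). The 10 genes had a median log2 fold change of 0.08 over the 10 genes and -0.02 over all tested features. In both WT and KO, 3 genes were higher in replicate 2 than in replicate 1 (*Nampt*, *Nmnat1* and *Sirt1*), and 5 were lower (*Sirt2*, *Sirt3*, *Sirt5*, *Sirt6* and the *Sirt7* feature). Over the 12990 tested features, the deviations of same-numbered libraries correlated at r = 0.07 and rho = 0.39. Whether the replicate numbers mark a shared difference is therefore unsettled. A permutation of 2 against 2 libraries cannot give an exact two-sided p below 0.333. The p-values of single genes here therefore rest on the model of limma, which shares variance across features.

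Since FPKM is per length, the sirtuin transcripts can also be read as shares of their own sum, which was 122 and 118 FPKM in WT and 133 and 123 in KO. The nuclear *Sirt1*, *Sirt6* and *Sirt7* features made up 72.1 and 74.0% in WT and 70.9 and 74.0% in KO, and the mitochondrial *Sirt3*, *Sirt4* and *Sirt5* 18.4 and 17.3% in WT and 17.1 and 15.4% in KO. *Sirt2* took 9.46 and 8.68% in WT and 12.1 and 10.6% in KO, and *Sirt5* 5.34 and 4.94% in WT and 3.81 and 3.12% in KO. The nuclear genes thus carried most of the sirtuin RNA in every library, *Mafg* reads included in the *Sirt7* feature. The ratio of *Sirt2* to *Sirt5*, chosen after the values were seen, was 1.77 and 1.76 in WT and 3.17 and 3.41 in KO.

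**Figure D3:**
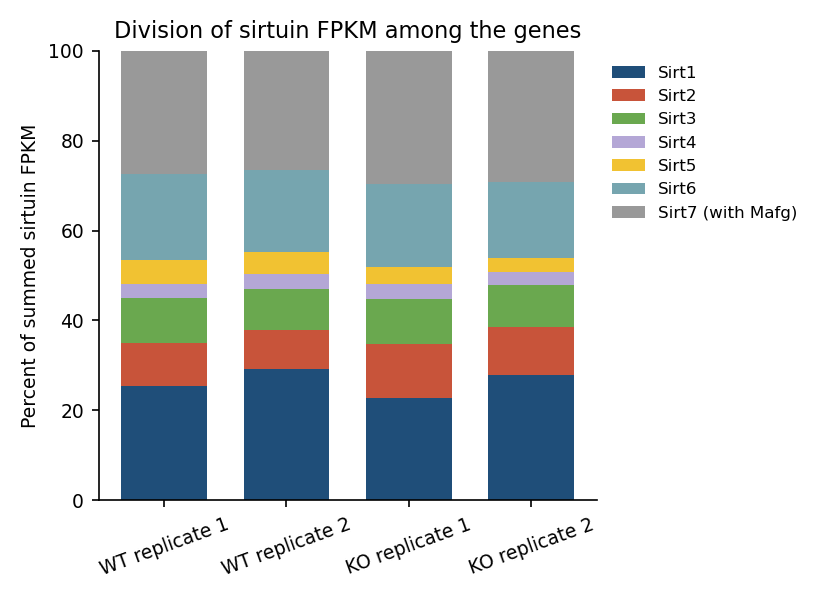
Share of the summed FPKM of the 7 sirtuin features in each library, in percent, as stacked bars. The nuclear sirtuins hold 70.9 to 74.0% in every library, and the *Sirt2* band is wider and the *Sirt5* band narrower in both KO libraries.

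Genes next to or over the members were read for their own changes, since transcript assembly can pass reads between close features. At the same coordinates as 6 of the 10 lay another feature: *Gdap10* with *Nampt*, *Lzic* with *Nmnat1*, *Gm19897* with *Sirt2*, *Ric8* and *Bet1l* with *Sirt3*, *Ankrd24* with *Sirt6*, and *Mafg* with *Sirt7*. The shared span can be wider than the gene. *Sirt6* is annotated to end at 81627797 and *Nmnat1* at 149485202, and *Sirt3* to start at 140863666. Each feature has its own FPKM. The sources used here do not state whether the libraries keep the strand, so how reads were divided between these features is unknown and was not tested. Of 29 overlapping or flanking features, 24 were tested and 2 had an adjusted p under 0.05, both lower in KO, beside 12.5% of all features (5.6% lower). *Pla2g1b*, a secreted phospholipase gene 3108 bases from *Sirt4*, was at 75.7 and 76.6 FPKM in WT and 24.5 and 24.0 in KO (log2 fold change -1.65, standard error 0.07, adjusted p = 0.00115). *Gfod1*, 60904 bases from *Sirt5*, was at 8.97 and 7.93 FPKM in WT and 3.33 and 3.97 in KO (log2 fold change -1.19, standard error 0.14, adjusted p = 0.00740). *Sirt4* beside *Pla2g1b* stayed at 3.66 to 4.15 FPKM. The genes closest to *Sirt2*, *Nfkbib* at 107 bases and *Rinl* at 303 bases, had log2 fold changes of 0.20 (adjusted p = 0.283) and -0.38 (adjusted p = 0.0656). *Nfkbib* was at 34.5 and 31.0 FPKM in WT and 40.6 and 34.7 in KO, the same order of libraries as *Sirt2*. Whether reads of *Sirt2* and these genes mixed was not tested.

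**Figure D4:**
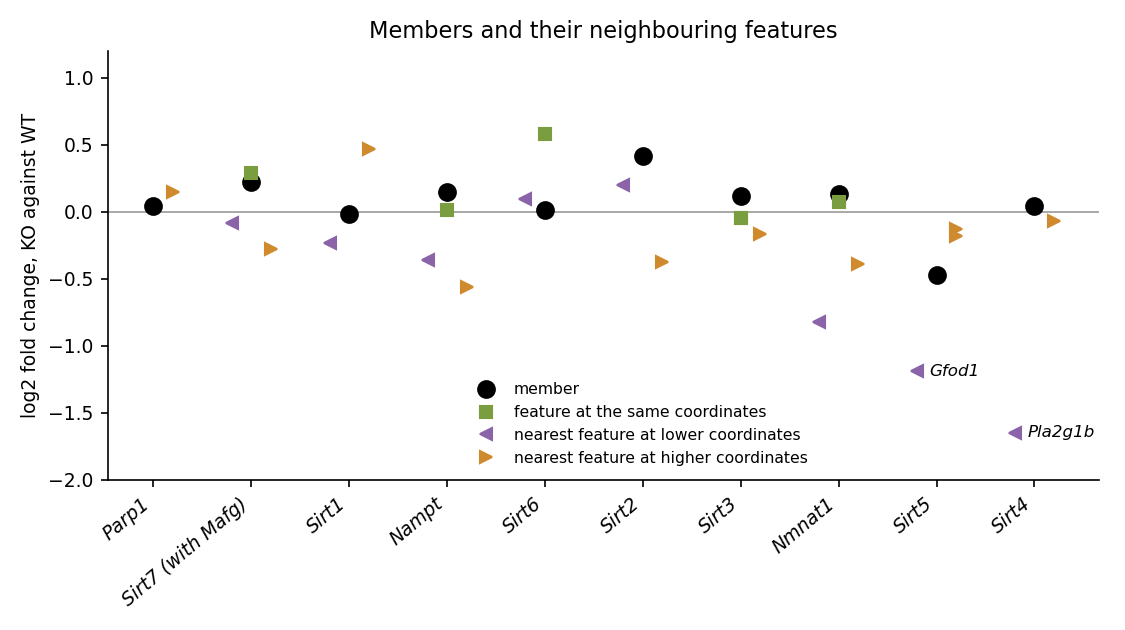
Log2 fold change of KO against WT for each NAD gene and for the overlapping or flanking features that were tested. *Pla2g1b* beside *Sirt4* (-1.65) and *Gfod1* beside *Sirt5* (-1.19) are the 2 with an adjusted p under 0.05.

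The profile of *Sirt5*, the member with the largest difference, was matched to all other tested genes by the root-mean-square distance between centred log2 values over the 4 libraries. The closest were *Prrt3* (0.0136), *Pla2g10* (0.0155) and *Kirrel2* (0.0255). With 4 libraries a small distance says only that the values are alike in these samples.

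The rest of the NAD pathway was read from 4 lists of other genes, 44 symbols in all, of which 41 were listed and 31 tested. Of the 31, 1 was higher and 0 lower at an adjusted p under 0.05, with a median log2 fold change of 0.11, beside 12.5% called and a median of -0.02 over all features. Among the other NAD synthesis genes, 7 of 14 listed were tested and 0 passed. *Nmnat2*, the Golgi-associated NMNAT enzyme, was at 9.97 and 9.59 FPKM in WT and 11.5 and 11.7 in KO (log2 fold change 0.24, adjusted p = 0.137), so its level was above that of *Nmnat1* in every library, while *Nmnat3* stayed at 0.403 FPKM or less. *Nmrk1*, a nicotinamide riboside kinase, had a log2 fold change of 0.36 (adjusted p = 0.208), and the merged feature of *Pnp* and *Pnp2* had -0.17 (adjusted p = 0.192). *Ido1*, *Ido2*, *Kmo*, *Kynu* and *Haao*, of the route from tryptophan, were each at 0.148 FPKM or less in every library, whereas *Qprt*, the last enzyme specific to that route, was at 10.1 to 10.8 FPKM and *Afmid* at 0.634 to 1.07.

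Among 14 tested NAD-consuming enzymes besides the members 0 passed. *Sarm1*, an NAD hydrolase, had a log2 fold change of 0.54 (adjusted p = 0.0804), *Tiparp* 0.36 (adjusted p = 0.156) and *Parp3* 0.70 (adjusted p = 0.164), and *Parp2*, the polymerase closest to *Parp1* in function, was at 41.8 and 45.8 FPKM in WT and 42.9 and 48.9 in KO. The 4 tested genes of ADP-ribose removal gave 0 calls, with a median of 0.13. The 3 of smallest adjusted p were *Macrod2* (log2 fold change 0.28, adjusted p = 0.381), *Macrod1* (0.20, adjusted p = 0.577) and *Adprhl2* (-0.10, adjusted p = 0.631), which remove ADP-ribose from proteins. The gene that passed was *Nnt*, the mitochondrial transhydrogenase that passes hydride from NADH to NADP, among 6 tested genes of NADP synthesis, transport and clearance. *Nnt* was at 6.51 and 5.99 FPKM in WT and 10.7 and 10.9 in KO, with no overlap and a 1.72-fold difference (log2 fold change 0.78, standard error 0.10, adjusted p = 0.00947). The next genes of that list were *Aox1*, a nicotinamide-clearing oxidase (log2 fold change 0.89, adjusted p = 0.268), and *Slc12a8* (0.25, adjusted p = 0.380).

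Genes that act with or on the sirtuins were counted in the same way. Their lists were also chosen with earlier results of these data known, so the counts describe and do not test. The SIRT1 regulators *Ccar2* and *Rps19bp1* had log2 fold changes of 0.08 (adjusted p = 0.657) and -0.09 (adjusted p = 0.522). Of 6 tested mitochondrial substrates of sirtuins, 3 were higher in KO and 0 lower, with a median of 0.46, beside 6.85% higher, 5.6% lower and a median of -0.02 over all features. *Sirt3* itself did not pass. *Acss1*, the mitochondrial acetyl-CoA synthetase that SIRT3 deacetylates, was at 1.69 and 1.82 FPKM in WT and 4.52 and 4.08 in KO (log2 fold change 1.25, adjusted p = 0.00725). *Idh2*, the mitochondrial NADP-dependent isocitrate dehydrogenase, was at 51.4 and 51.0 FPKM in WT and 89.6 and 84.7 in KO (log2 fold change 0.76, adjusted p = 0.00522), and *Sod2*, the mitochondrial superoxide dismutase, at 44.7 and 48.9 in WT and 65.6 and 67.3 in KO (log2 fold change 0.51, adjusted p = 0.0165). *Idh2* and *Sod2* were named after their values were seen, as the rest of a count of 3. The adjusted p of *Sod2* was 0.0559 without a variance trend, the highest of a range that began at 0.00258.

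Other deacetylases and clock genes gave a frame for the sirtuins, from lists chosen with the same knowledge of earlier results. Of 10 tested zinc-dependent HDAC genes 1 was higher, *Hdac7*, at 0.795 and 0.7201 FPKM in WT and 1.73 and 1.37 in KO (log2 fold change 0.94, adjusted p = 0.0477), a call that was lost in 6 of 15 other settings, and 6.85% of all features were higher. *Hdac10* had a log2 fold change of 0.44 (adjusted p = 0.154) and *Hdac5* 0.33 (adjusted p = 0.166). Among the bHLH-PAS activators, to which *Arntl* belongs (log2 fold change -0.06, adjusted p = 0.750), *Clock* had -0.03 (adjusted p = 0.905). Of 10 tested clock repressors and outputs 3 were higher and 0 lower, beside 6.85% and 5.6% of all features. *Bhlhe40* rose from 2.62 and 2.79 FPKM to 12.2 and 10.03 (log2 fold change 1.99, adjusted p = 0.00226), *Dbp* from 1.65 and 1.499 to 4.40 and 4.17 (log2 fold change 1.39, adjusted p = 0.00576), and *Tef*, named after its values were seen, from 4.16 and 3.57 to 6.92 and 6.51 (log2 fold change 0.78, adjusted p = 0.0174). The other tested genes of that list did not pass, among them *Per1* (log2 fold change 0.37, adjusted p = 0.193), *Cry1* (0.05, adjusted p = 0.746) and *Per3* (-0.33, adjusted p = 0.327). *Bhlhe40*, *Dbp* and *Tef* are printed because they passed, so they are no contrast to the 10 NAD genes.

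**Figure D5:**
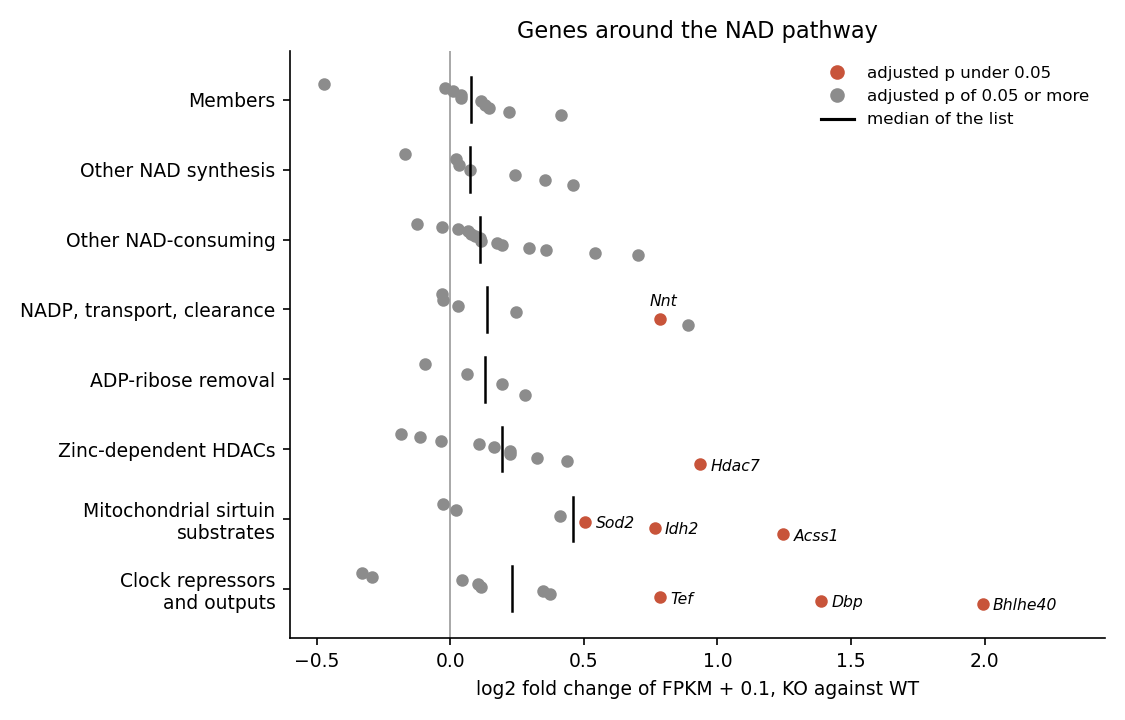
Log2 fold change of KO against WT for the tested genes of each list, with genes of adjusted p under 0.05 marked and named. The 10 NAD genes lie between -0.47 and 0.41 with 0 marked, while *Nnt*, *Hdac7*, 3 sirtuin substrates and 3 clock outputs are marked, all higher in KO.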

How the data were processed

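The deposited values are FPKM per feature, 1 file per library. After Trizol extraction and ribosomal RNA depletion, the authors mapped reads to GRCm38 (mm10) and derived FPKM with Cufflinks. The submitters' processing notes name TopHat2 2.1.1, Bowtie2 2.3.0 and Cufflinks 2.2.1. Read numbers, and so depth, are unknown, and precision was judged from replicate spread. Starts count from 0, so 1 was added. The genotypes were compared by limma 3.58.1 (R 4.3.3) on log2(FPKM + 0.1) for 12990 features with a mean of at least 0.5, with a variance trend, a two-sided test and Benjamini-Hochberg adjustment over all of them. This fold change understates low genes. The script was tested on simulated data. Tables and plots used Python 3.11.15, numpy 2.4.6, pandas 2.3.3 and matplotlib 3.10.9. The 10 genes and the lists were chosen with earlier results of these data known. From each list, genes past adjusted p 0.05 and 2-fold were named, otherwise up to 3 of smallest adjusted p. Alternatives covered pseudocounts, filters, scaling, features without a symbol, summing by symbol, the variance trend, the replicate number as a block and leaving out each library. Promoters came from RefSeq.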

Additional observations from a re-analysis of the deposited data

How the results depend on the processing

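Neither labels nor methods pair the replicate numbers, and the data leave it unsettled: deviations of same-numbered libraries correlated at r = 0.07 and rho = 0.39 over 12990 features, which are not independent. With the replicate block 2 of the 10 genes were higher (*Sirt2*, limma adjusted p = 0.0114, and *Sirt7*, 0.0171) and 1 lower (*Sirt5*, 0.0268). *Nampt* came to an adjusted p of 0.0517 with the block and did not pass. The block also passed 4 wider NAD genes. Over all features it gave 1807 higher and 2245 lower at adjusted p under 0.05, against 890 and 728 without it. Leaving out 1 library gave 0 to 1 of the 10 higher, 0 to 1 lower, 1 to 2 wider NAD genes, a median over the 10 genes of 0.0498 to 0.0767, and 251 to 331 features called down beyond 2-fold against 185. It also turned 5 directions: *Nmnat1* ranged from -0.043 to 0.30, *Sirt1* from -0.12 to 0.077, *Sirt3* from -0.00058 to 0.23, *Sirt4* from -0.049 to 0.13 and *Sirt6* from -0.11 to 0.14. Scaling to the summed FPKM of features with a symbol gave *Sirt1* 0.052 and a median of 0.15, and quantile normalization gave *Sirt4* -5.14e-05 and a median of 0.10. A pseudocount of 1 left 146 features called up against 353 and 85 down. With no filter on low values 571 features were higher and 380 lower, and with no trend in the variance 457 were lower and 2 wider NAD genes passed. The cause was not tested. *Nampt*, *Parp1*, *Sirt2*, *Sirt5* and *Sirt7* kept their direction in all 15 settings, which reuse the same libraries. *Nampt* kept it only barely, with a log2 fold change of 0.00061 without KO replicate 2 and 0.29 without KO replicate 1. With 2 libraries a group and no read numbers, precision rests on replicate spread alone.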
